A study of Drosophila melanogaster with 3 samples.

Results

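Binding of the tagged protein Coop was examined at the genes of the cytosolic translation factors of Drosophila melanogaster. The genes were taken by name, as the protein-coding genes of the Ensembl annotation whose symbol starts with eIF, eEF or eRF, which gave 54 of 13968 protein-coding genes. The material was whole prepupae, aged 24 h and of pooled sexes, from 1 transgenic line (strain CG1621) that stably expresses Coop (CG1621) with GFP at its C-terminal end. The labels do not say which promoter drives the transgene, and a whole animal mixes all tissues, so a peak cannot be assigned to a cell type. There were 3 biological replicates of this 1 group, profiled by ChIP-seq, which sequences the DNA that is pulled down with the tagged protein. No other genotype, stage or treatment was profiled, so no comparison between conditions was possible and no test was run. The description of each library calls it an input control, while its assay title and antibody field describe a ChIP library, and every value rests on the second reading.

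Translation starts when eIF2 brings the initiator tRNA to the small ribosomal subunit, where the scaffold eIF3 and the scanning factors eIF1 and eIF1A assemble. The mRNA is recruited by the cap-binding protein eIF4E, the scaffold eIF4G and the helicase eIF4A, and eIF5B joins the large subunit. Elongation then runs on eEF1, which delivers aminoacyl-tRNA, and eEF2, which moves the ribosome along, until eRF1 and eRF3 release the finished protein. In flies many genes of the translation machinery are housekeeping genes. Their promoters often carry the DRE (DNA replication-related element, bound by the factor Dref) or, in ribosomal protein genes, a pyrimidine-rich TCT start in place of the usual initiator.

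Each deposited list gives regions with a summit, the base of highest signal, and the authors' signal value. A gene was called bound in a list when a summit lay within 500 bp of any of its transcription start sites (TSS). The thresholded list held 6626 peaks, and the pooled list and each replicate list held 30000 regions down to weak ones. Ranks below count from 1 for the highest signal in a list. The read depth of the libraries is unknown, because the files give no counts. Replicate 3 stood apart before any factor gene was considered: its full list reached 36.5% of all protein-coding genes, against 51.5% in replicate 1 and 46.1% in replicate 2.

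In the thresholded list 18 of the 54 factor genes were bound (33.3%), against 21.1% of all protein-coding genes. In order of signal these were eIF6, eIF4EHP, eEF1alpha1, eIF4A, eEF1gamma, eIF3h, eIF3j, eEF5, eIF5B, eIF4H1, eIF2Bepsilon, eIF3a, eIF4G2, eIF2gamma, eIF4E1, eIF2A, eIF2D and eIF2beta. Together they had 22 summits, since eEF1alpha1, eEF5, eIF3h and eIF4G2 had 2 each. The relaxed pooled list reached 30 factor genes (55.6%), against 41.3% of all genes. These shares are descriptions, and no set test was run on them.

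When each replicate list was reduced to its 6626 regions of highest signal, 22 factor genes were bound in replicate 1 (40.7%), 19 in replicate 2 (35.2%) and 14 in replicate 3 (25.9%). The same lists reached 25.9%, 21.3% and 18.1% of all genes. The mean was 34.0% ± 7.48 (SD, n = 3) for factor genes and 21.8% ± 3.93 (SD, n = 3) for all genes, and the factor genes lay above all genes in 3 of 3 replicates. A total of 10 factor genes were bound in all 3 of these lists (18.5%, against 12.7% of all genes). Of these, 8 had a thresholded peak whose summit lay within 100 bp of one in each reduced list (14.8%, against 10.7% of all genes).

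The full lists separated replicate 3 from the others further. They held 40 factor genes in replicate 1 (74.1%, against 51.5% of all genes), 35 in replicate 2 (64.8%, against 46.1%) and 20 in replicate 3 (37.0%, against 36.5%). In replicates 1 and 2 the share of factor genes was above that of all genes, and in replicate 3 it was at that level. All 3 full lists held 17 factor genes (31.5%), against 28.5% of all genes. A further 16 factor genes (29.6%) were listed in replicates 1 and 2 and not in replicate 3, against 13.5% of all genes. The labels name no batch that separates replicate 3, and the cause was not tested.

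**Figure D1:**
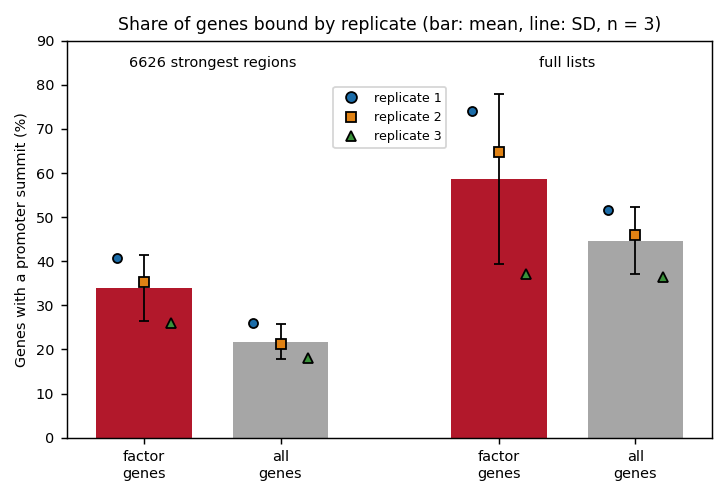
Percentage of genes with a promoter summit in each replicate list, for the 54 translation factor genes and all 13968 protein-coding genes, in the 6626 strongest regions and in the full lists of 30000 regions. Bars are means, lines are SD (n = 3) and points are replicates; factor genes reach 74.1% in the full list of replicate 1 and 37.0% in that of replicate 3, where all genes reach 36.5%.

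The DNA under the summits that recur below is shown first, from the RefSeq copy of the release 6 genome (dm6 coordinates), on the strand of the gene. Each stretch is the part of the 121 bases around a summit that lies outside annotated UTRs. Capitals mark complete matches to the DRE (TATCGATA) and to TATAAA on either strand.
eIF4EHP (chr3R:24109136-24109256, minus strand): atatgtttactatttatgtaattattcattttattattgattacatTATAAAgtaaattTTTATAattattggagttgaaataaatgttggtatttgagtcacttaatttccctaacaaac
eEF1gamma (chr3R:29220109-29220171, plus strand): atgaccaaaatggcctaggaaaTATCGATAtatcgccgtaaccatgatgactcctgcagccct
eIF3a (chr3R:4433896-4433964, minus strand): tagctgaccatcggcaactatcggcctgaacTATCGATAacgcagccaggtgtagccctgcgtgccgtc
eIF2gamma (chr3R:15263465-15263551, minus strand): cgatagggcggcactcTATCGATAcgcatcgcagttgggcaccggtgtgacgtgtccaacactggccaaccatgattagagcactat
eIF4H1 (chrX:16448885-16449005, plus strand): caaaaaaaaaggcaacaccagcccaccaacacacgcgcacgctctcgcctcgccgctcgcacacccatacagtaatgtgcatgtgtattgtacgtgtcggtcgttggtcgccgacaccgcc
eIF3h (chr2L:5052428-5052548, minus strand): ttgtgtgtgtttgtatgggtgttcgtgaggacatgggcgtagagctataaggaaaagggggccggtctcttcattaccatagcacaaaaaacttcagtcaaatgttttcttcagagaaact
The stretches of eEF1gamma, eIF3a and eIF2gamma are shown because each holds a DRE near the summit, and that of eIF4EHP because it carried the second strongest factor peak. Those of eIF4H1 and eIF3h, both intronic, are shown as contrast, since they held none of the words searched.

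Among the factors that bring in the initiator tRNA, 2 of the 3 eIF2 subunit genes were bound. The gene of the gamma subunit, which binds GTP and the tRNA (eIF2gamma, FBgn0263740, 3R, 15257844 to 15263458), carried a peak of signal 250, whose summit at 15263525 preceded the TSS by 67 bp. It ranked 1457 in replicate 1 and 5954 in replicate 2 and was not listed in replicate 3, where the nearest region of any rank lay 11899 bp away. This summit is shared: Su(var)3-9, which encodes a histone H3 lysine 9 methyltransferase, starts at the same TSS, and Set, a divergent gene for a histone chaperone, starts 27 bp from the summit and is the nearest gene. The beta subunit gene eIF2beta had the weakest thresholded factor peak (signal 172, rank 6570), 228 bp inside the gene in an intron, and it ranked 7461, 4387 and 7317 in replicates 1, 2 and 3. The alpha subunit, whose phosphorylation shuts initiation down under stress, is encoded by eIF2alpha, which was not bound and ranked 13569, 11501 and 26551.

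eIF2B recharges eIF2 with GTP, and 1 of its 5 subunit genes was bound. This was eIF2Bepsilon (FBgn0023512, X, 1920166 to 1922874), the catalytic subunit, with a signal of 320 and ranks of 1636, 3680 and 3106 in the 3 replicates. Its summit at 1922986 lay 112 bp upstream of its own TSS and 5 bp inside the divergent gene Ocrl, which encodes an inositol phosphatase, so Ocrl was the nearer gene. eIF2Bgamma was listed in replicates 1 and 2 alone, at ranks 7018 and 9786, and eIF2Balpha in no list. eIF2Bbeta shows how much the 500 bp limit decides. A peak of signal 4819 and rank 5 of 6626 lay 677 bp from its TSS, but 42 bp upstream of the divergent gene Ugalt. At the TSS of eIF2Bbeta itself only weak summits were listed, at ranks 18493 and 24760 in replicates 1 and 2 and nowhere in replicate 3. eIF2Bdelta, with a peak of signal 198 at 775 bp, and eEFSec, the selenocysteine elongation factor gene, with one of signal 236 at 538 bp, were the other genes just outside the limit. The widest offset inside it was 292 bp, at eIF3h, so no bound factor gene sat near the limit.

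eIF2A and eIF2D, factors that can deliver initiator tRNA without eIF2, were both bound, with low signals of 213 and 190. eIF2A ranked 1635 in replicate 1 and 5386 in replicate 2 and was not listed in replicate 3. eIF2D ranked 7039, 4626 and 6425, close to the limit of 6626 in replicates 1 and 3 and well inside it in replicate 2. The rank of 4626 belonged to a different summit, 17 bp upstream of the TSS. The summit of replicate 2 nearer to the thresholded one lay 226 bp upstream and ranked 10578. Among the reduced lists, the thresholded eIF2D summit was found in replicate 3 alone. The 2 genes therefore had different replicate patterns despite similar signals. Of the scanning factors, eIF1 and eIF1A, neither was bound in the thresholded list. eIF1A was listed weakly in every replicate, at ranks 18152, 11856 and 18220. eIF1 ranked 648 in replicate 1 and 3985 in replicate 2, yet no summit of replicate 3 or of the pooled list came within 500 bp of its TSS, and the nearest pooled region lay 1682 bp away. Both of those eIF1 summits lay nearer to RpL28, a ribosomal protein gene that starts 381 bp away on the other strand. Of 633 genes within the 1000 strongest regions of replicate 1, 14 (2.21%) were likewise missing from the pooled list, and eIF1 was the only factor gene among them.

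eIF3 is the largest initiation factor, and 3 of its 16 genes were bound, namely eIF3a, eIF3h and eIF3j, a share near the 21.1% of all genes. In the reduced replicate lists 6 eIF3 genes were bound in replicate 1, 3 in replicate 2 and 1 in replicate 3, where 25.9%, 21.3% and 18.1% of all genes were bound. eIF3h (FBgn0022023, 2L, 5051193 to 5053094) was the gene bound in all 3. Its stronger summit, at 5052488, had a signal of 522 and lay in an intron, 292 bp downstream of an internal TSS. The second, in coding sequence 93 bp downstream of the same TSS, had 231. Both also lay within 500 bp of the TSS of senju, at 355 and 156 bp, and eIF3h was the nearer gene for each. senju starts on the other strand inside the span of eIF3h, so it is divergent only to the internal TSS. The gene ranked 2754, 2349 and 890, with its best rank in replicate 3, as was the case for eIF4EHP below.

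eIF3a (FBgn0037249, 3R, 4429798 to 4433895) encodes the subunit on which the complex is built. Its summit, at 4433910 and 15 bp upstream of the TSS, had a signal of 300 and lay between eIF3a and the divergent gene CG1074. It ranked 1480 and 3244 in replicates 1 and 2 and was not listed in replicate 3, where no region of any rank lay within 14068 bp. eIF3j, a loosely attached subunit, had a signal of 466 in an intron, with ranks of 2080 and 1973 and no listing in replicate 3. Of the other 13 genes, 4 were in the relaxed pooled list, with eIF3k at rank 8435 and eIF3i at 9699. eIF3e and the copy eIF3d2 had no summit in any of the 5 lists. eIF3c, eIF3d1 and eIF3f1 were bound in the reduced list of replicate 1 alone, at ranks 4854, 4274 and 4234. eIF3b ranked 6864 and 14390 in replicates 1 and 2, eIF3f2 28591 and 27702, eIF3l and eIF3m appeared in replicate 1 alone at 19679 and 10954, eIF3g1 there at 22019, and its copy eIF3g2 in replicate 3 alone at 25118.

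**Figure D2:**
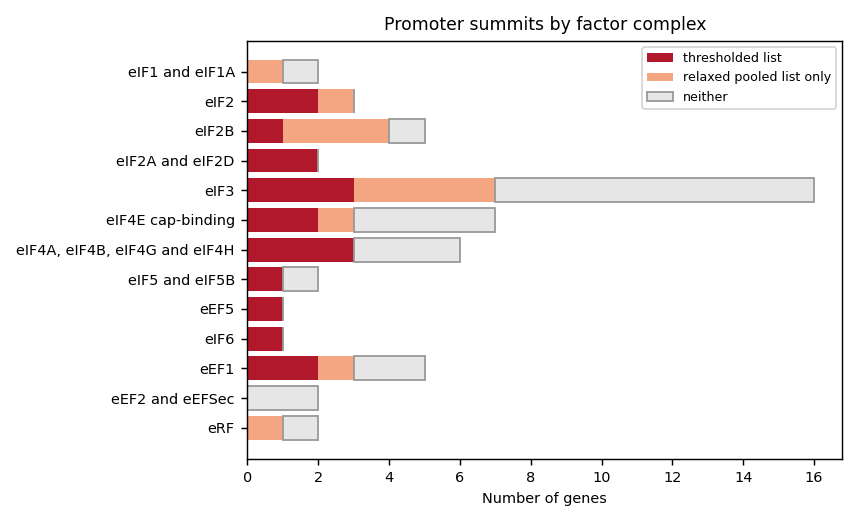
Number of genes per factor complex with a promoter summit in the thresholded list, in the relaxed pooled list only, or in neither. eIF3 has 3 bound genes of 16, while eIF2A and eIF2D are bound as 2 of 2.

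The cap-binding family held one of the strongest factor peaks and 3 genes that were in no list. eIF4EHP (FBgn0053100, 3R, 24063077 to 24108960) encodes a cap-binding protein that represses translation because it does not recruit eIF4G. Its summit at 24109196 had a signal of 1363 (rank 194) and ranked 765, 142 and 123 in replicates 1, 2 and 3. It lay 236 bp upstream of eIF4EHP and 140 bp upstream of the divergent gene CG18428, which was therefore nearer. In replicate 1 it was split into 2 summits, the stronger 111 bp upstream of eIF4EHP and nearest to that gene. The stretch printed above from this summit is rich in A and T, with TATAAA on each strand. eIF4E1, the main cap-binding protein gene, had a much lower signal of 229 and ranked 3353, 6650 and 5943. Within eIF4E1 a further 2 thresholded peaks lay beyond the 500 bp limit, at 591 bp with a signal of 323 and at 1782 bp with 309. Both were stronger than its promoter summit.

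Of the other eIF4E genes, eIF4E6 was listed in all replicates at ranks 7192, 12930 and 9582, each time nearer to its divergent neighbour CG1951. eIF4E3, known for its role in the male germ line, was listed in replicate 3 alone, at rank 25675. eIF4E4, eIF4E5 and eIF4E7 had no summit in any list. More generally, 11 factor genes are second copies of another member by name, and 1 of them, eIF4G2, was bound. Of the 7 genes they duplicate, 3 were bound (eIF4E1, eIF4H1 and eEF1alpha1). Beside the 21.1% of all genes, these counts are too small to set apart. In all, 10 factor genes (18.5%) were in none of the 5 lists, against 5591 of all 13968 genes. They were eIF2Balpha, eIF3d2, eIF3e, eIF4E4, eIF4E5, eIF4E7, eIF4B, eIF4G1, eIF4H2 and eEFSec.

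The helicase eIF4A and its partners gave 3 bound genes of 6. eIF4A (FBgn0001942, 2L, 5981764 to 5985909) had a signal of 706 and ranked 343, 781 and 1089, with the summit at 5982484 in its 5′ UTR, 110 bp upstream of an internal TSS. eIF4H1, a cofactor of the helicase, had a signal of 344 and ranked 2509, 2518 and 4270. Its summit lay in the intron shown above, 207 bp upstream of an internal TSS. The scaffold gene eIF4G2, a copy known from the male germ line, had summits 203 bp inside the gene (signal 273) and 5 bp upstream (230), and ranked 2293, 3464 and 3454. Its TSS is also that of CG33111 on the same strand, so the genes share both summits. The main scaffold gene eIF4G1, on chromosome 4, and eIF4B and eIF4H2 had no summit in any list. The nearest thresholded summit lay 259576 bp from eIF4G1 and 774293 bp from eIF4B.

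For subunit joining, eIF5B (FBgn0026259, 3L, 3428658 to 3460977) was bound with a signal of 389, in its 5′ UTR, and ranked 2563, 1759 and 3750. It also had thresholded peaks in introns 16145 and 18363 bp from a TSS, with signals of 260 and 246. eIF5, which makes eIF2 hydrolyse GTP, was listed in replicate 1 alone, at rank 12747. The strongest of all factor peaks was at eIF6 (FBgn0034915, 2R, 23849246 to 23850301), whose product keeps the large subunit from joining too early. The summit at 23850400, 99 bp upstream of the TSS, had a signal of 2097 (rank 70) and ranked 41, 88 and 122. This summit also lay in an intron of another protein-coding gene, with no TSS of such a gene within 500 bp. eIF6 was the factor gene of best rank in each of the 3 replicates.

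Of the elongation factor genes 3 of 8 were bound. eEF1alpha1 (FBgn0284245, 2R, 11891135 to 11895762), which encodes the protein that carries aminoacyl-tRNA, had a signal of 932 and ranked 299, 873 and 415. That summit, at 11893289, lay in an intron 253 bp upstream of an internal TSS, and a weaker one of signal 235 lay 83 bp downstream of a TSS. Its copy eEF1alpha2 reached only ranks 20321 and 18477 and was not listed in replicate 3. The exchange factor subunit gene eEF1gamma (FBgn0029176, 3R, 29220172 to 29222109) had a signal of 635 with the summit 3 bp upstream of the TSS, and ranked 579 and 1086 in replicates 1 and 2. In replicate 3 its nearest region was 1869 bp away, at rank 20922, which makes it the strongest factor peak that this replicate lacked. The partner subunit genes eEF1beta, at ranks 27944 and 6925 in replicates 1 and 2, and eEF1delta, at 13235 in replicate 1 alone, were not bound. eEF5, the fly gene for the hypusine-bearing factor known elsewhere as eIF5A, had summits of signal 459 and 264 and ranked 561, 2306 and 3349.

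eEF2, the translocase gene, differed from eEF1gamma in that it was listed in replicate 3. It was not listed in replicate 1, ranked 11760 in replicate 2 and reached 2761 in replicate 3, and the thresholded and pooled lists did not hold it. The ranks belonged to different summits, 464 bp downstream of a TSS in replicate 2 and 45 bp downstream in replicate 3. The release factor genes eRF1 and eRF3 were not bound in the thresholded list. eRF3 ranked 5613, 12802 and 6570, and eRF1 was listed in replicate 2 alone, at 5769. That eRF1 summit lay 489 bp from a TSS, near the 500 bp limit. In replicate 1 a summit of rank 7771 lay just outside it, at 597 bp. Across complexes, the 10 factor genes bound in all 3 reduced replicate lists were eIF6, eIF4EHP, eEF1alpha1, eIF4A, eIF3h, eEF5, eIF5B, eIF4H1, eIF2Bepsilon and eIF4G2.

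**Figure D3:**
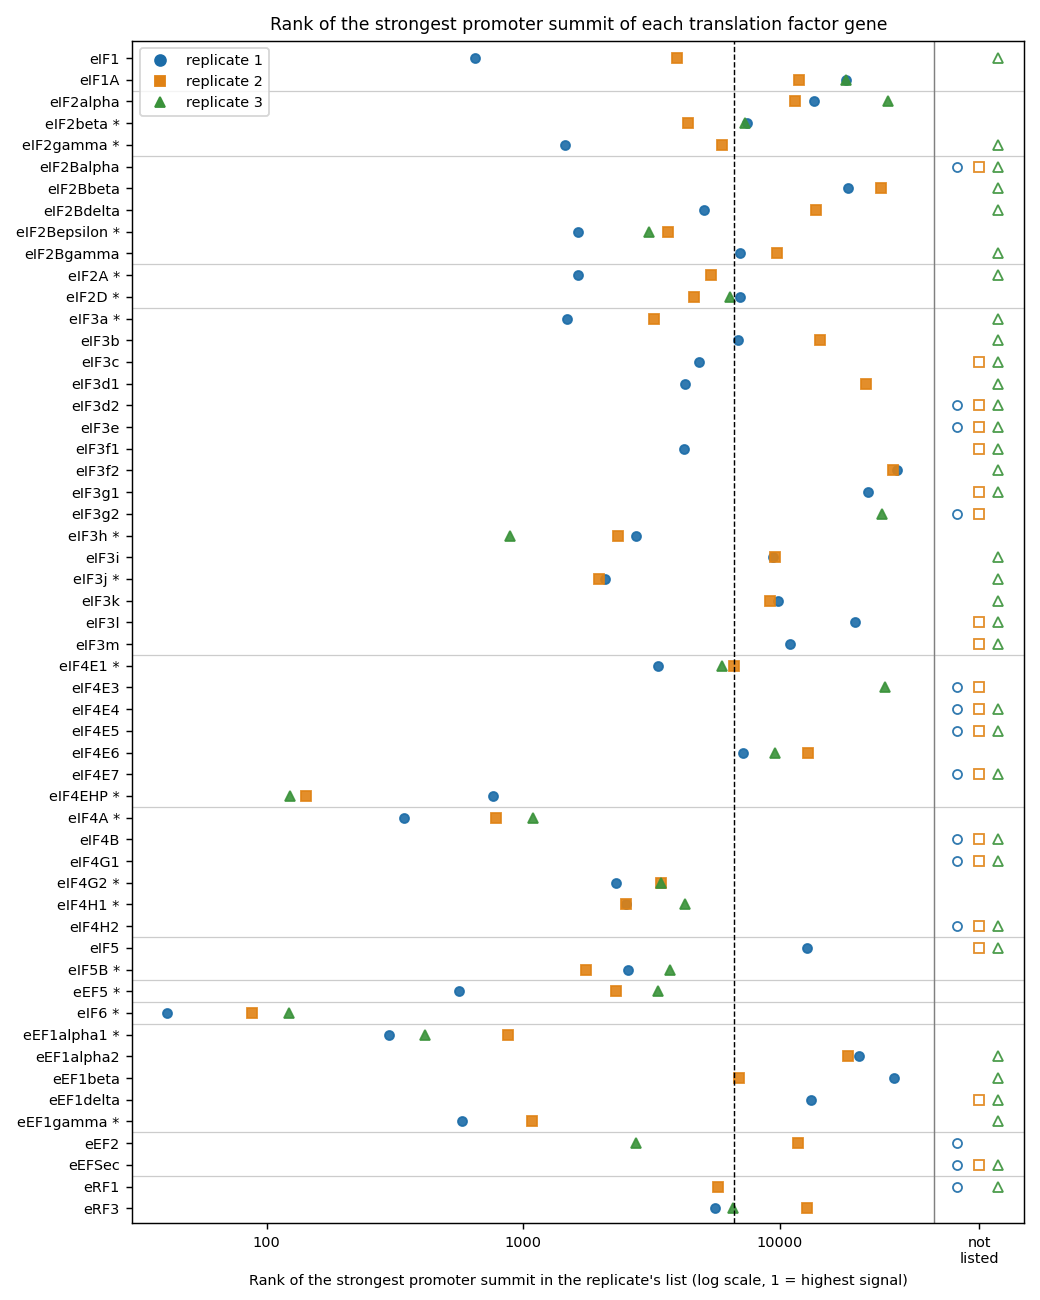
Rank of the strongest promoter summit of each of the 54 factor genes in the full list of each replicate, on a log axis with 1 the highest signal; open symbols at the right are genes not listed, the dashed line is rank 6626, grey lines part the complexes and asterisks mark genes bound in the thresholded list. eIF6 ranks 41, 88 and 122, and 16 genes are listed in replicates 1 and 2 and not in replicate 3.

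Relative to the nearest TSS of the gene, summits mostly lay just upstream. For the strongest summits of eEF1alpha1, eIF4A, eIF4H1, eIF5B, eIF4E1, eIF2A, eIF3h and eIF3j that TSS was internal, and these summits lay inside the gene. Taking the strongest summit of each bound factor gene, offsets ran from -253 to 292 bp with a median of -83 bp, and 14 of 18 lay upstream (77.8%, against 71.2% of all bound genes). The median distance to a TSS was 142 bp, against 113 bp for all bound genes. Of the 22 summits, 9 lay outside the gene, 7 in introns, 5 in 5′ UTRs and 1 in coding sequence. The median rank of the 18 genes was 2308, against 2982 for all bound genes, and 8 of them (44.4%, against 31.0%) lay among the 1656 strongest peaks. By summit, 8 of 22 were found in all 3 replicates (36.4%), against 48.2% of all promoter summits. By gene the share was 8 of 18 (44.4%), against 50.1% of all bound genes.

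**Figure D4:**
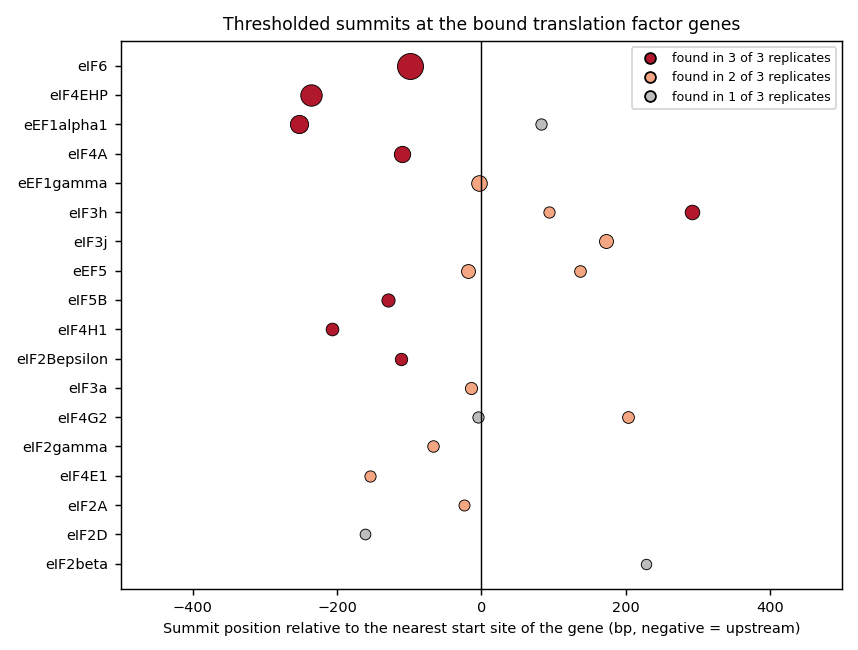
Position in bp of the 22 thresholded summits relative to the nearest start site of the bound factor gene, negative values upstream; symbol area grows with signal and colour gives the number of replicates in which the summit was found. The offsets run from -253 to 292 bp, and 8 summits were found in 3 of 3 replicates.

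The arrangement of promoters was compared next. A divergent promoter, with an opposite-strand TSS no more than 1000 bp upstream, was present at 10 of 18 bound factor genes (55.6%) and at 18 of 36 unbound ones (50%). The shares were 53.0% among all bound genes and 36.2% among all genes. Of the factor genes with a divergent promoter 35.7% were bound (10 of 28), close to the 31.0% of all such genes. Of those without one 30.8% were bound (8 of 26), against 15.6% of all such genes. More than 1 TSS was annotated at 12 of 18 bound and 10 of 36 unbound factor genes. Genes with several TSS have more positions at which a summit can count. Among genes with 1 TSS, 6 of 32 factor genes (18.8%) and 15.3% of all genes were bound, and among genes with several, 12 of 22 (54.5%) and 37.5%. The share of bound genes that share their summit with another gene was 6 of 18 (33.3%), against 42.5% of all bound genes.

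The DRE was the promoter word most frequent at the factor summits relative to other promoter summits. It was present within 100 bp either side of the summit at 5 of 22 factor summits (22.7%), against 133 of 2683 promoter summits (4.96%). The 5 genes were eIF6, eEF1gamma, eIF3a, eIF2gamma and eIF2A. Within 50 bp of the summit the count was 3, since the matches at eIF6 and eIF2A lay farther out. The DRE reads the same on both strands. At eEF1gamma it began 41 bp upstream of the TSS, and at eIF3a 38 bp upstream, as capitals in the stretches above. eIF2gamma had 3 matches around its summit, of which only that at 15263528 to 15263535 is complete in the printed stretch. The matches at 15263460 to 15263467 and at 15263547 to 15263554 each cross an edge of the stretch. Within 100 bp either side of a TSS the DRE was present at 6 of 18 bound and 8 of 36 unbound factor genes, or 25.9% of the 54, against 8.48% of all genes. The share with a DRE was thus above that of all genes among bound (33.3%) and unbound (22.2%) factor genes alike. Among all bound genes it was 11.1%.

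Replicate 3 lacked most of the summits with a DRE. All 5 were found in the full lists of replicates 1 and 2, and 1 of 5, at eIF6, in that of replicate 3. The fifth bound gene not listed in replicate 3, eIF3j, had no DRE at its summit. Of the 17 factor summits without a DRE, 16 were found in replicate 1, 16 in replicate 2 and 14 in replicate 3. Across all promoter summits the same direction was present and smaller. Of the 133 with a DRE, 97.7%, 96.2% and 72.9% were found in the full lists of replicates 1, 2 and 3, against 91.1%, 95.9% and 85.1% of the 2550 without. In each replicate's own 6626 regions, the DRE was present at 8 of 27 factor summits in replicate 1, 6 of 21 in replicate 2 and 1 of 17 in replicate 3. The shares of all promoter summits there were 7.77%, 4.92% and 3.07%. This pattern was noticed after the values were seen, the factor summits are few, and its cause was not tested.

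**Figure D5:**
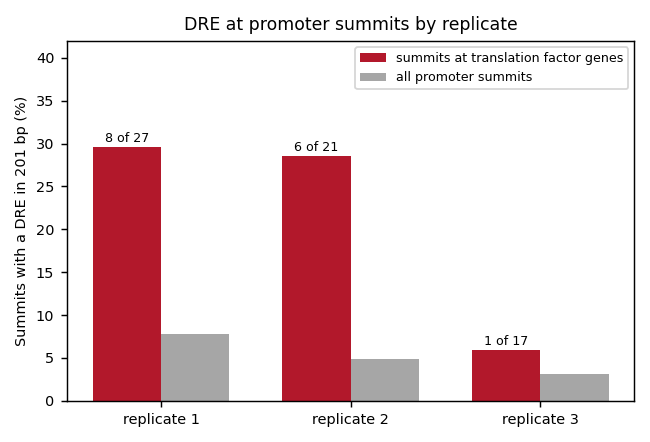
Percentage of promoter summits with the DRE (TATCGATA) within 100 bp either side, in the 6626 strongest regions of each replicate, for summits at translation factor genes and for all promoter summits; numbers above the bars are factor summits with the DRE of all factor summits. The factor share is 29.6% in replicate 1, 28.6% in replicate 2 and 5.88% in replicate 3.

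The other words were rare or at background. Motif 1 (GGTCACACT), the word bound by M1BP, was at none of the 22 factor summits, against 3.76% of promoter summits. The core of the TCF site (CTTTGA), the word for the Wingless factor Pangolin that Coop is known to bind, was also at none, against 8.87%. No match says only that these letters were absent within 100 bp, on either strand. The GAGA word (GAGAGAG) was at 2 (9.09%, against 9.06%), TATAAA at 5 (22.7%, against 23.1%) and the E-box CAGCTG at 1 (4.55%, against 13.0%). The Ohler 6 and Ohler 7 consensus words were at none, against 0.708% and 7.27%. A TCT start, searched as TCTTT within 10 bases of a TSS on the strand of the gene, was present at 12 of 54 factor genes (22.2%), against 4.22% of all genes and 63.4% of 93 ribosomal protein genes. It was at 4 of 18 bound factor genes (eEF1alpha1, eEF5, eIF4A and eIF5B) and 8 of 36 unbound ones, which is 22.2% in each case.

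Genes that act around these factors were taken from a separate list. Among 19 translation control genes 9 had a promoter peak (47.4%), and the reduced replicate lists averaged 47.4% ± 5.26 (SD, n = 3), against 21.1% and 21.8% of all genes. The strongest lay at larp, a La-related mRNA-binding protein gene (signal 3789, ranks 21, 8 and 17), and at pAbp, the poly(A)-binding protein gene (846, ranks 288, 5676 and 795). The pAbp summit lay 473 bp downstream of a TSS, near the 500 bp limit. crc, the fly ATF4, had a signal of 406, Lk6, the eIF4E kinase, 395, and Rack1, a scaffold on the small subunit, 347. Thor, which encodes the eIF4E inhibitor 4E-BP, had only 180 and ranked 5548, 9093 and 9336. The eIF2alpha kinase gene PEK was not bound in the thresholded list although it ranked 3049, 5474 and 5951, and Gcn2 was listed in replicate 3 alone, at 3571. Of 6 recycling and quality control genes 2 were bound, the ribosome rescue pair pelo (228) and HBS1 (394). Of 8 mitochondrial translation factor genes 1 was bound, mIF2 (216). Both lists are too short to set against the 21.1% of all genes.

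Cytosolic ribosomal protein genes, taken by symbol, were bound at 65 of 93 (69.9%) and aminoacyl-tRNA synthetase genes at 6 of 33 (18.2%), so the factor genes lay between them. The means over the reduced replicate lists were 61.7% ± 14.0 and 23.2% ± 10.6 (SD, n = 3). In both groups the order of the replicates was that of the factor genes, with 76.3%, 60.2% and 48.4% for ribosomal proteins and 33.3%, 24.2% and 12.1% for synthetases. All genes had the same order, with 25.9%, 21.3% and 18.1%.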

How the data were processed

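ChIP-seq regions of 3 biological replicates were analysed. Per the deposited notes, each replicate list was made from its own library against a common control alignment on dm6, the pooled list from all libraries, and the thresholded list from those 4 lists by irreproducible discovery rate. The caller, its thresholds and read depths are not given in the sources used here. Each signal value is the deposited score of the authors' caller, on a scale that differs between lists, and served only to rank regions of the same list. The −log10 q column, also deposited by the authors, was capped and left aside.

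Summits were placed at the deposited region start plus the summit offset plus 1. Genes and TSS came from Ensembl release 115 (BDGP6.54), and every region lay within the arms of the RefSeq release 6 genome. Computation used Python 3.11.15, pandas 2.3.3 and numpy 2.4.6. The assignment was tested on planted summits and recovered 200 of 200 genes, with 0 of 200 distant summits assigned. A thresholded summit was found in a replicate when a summit lay within 100 bp. Names followed a rule: all bound genes, all genes bound in all 3 replicates, the best-ranked gene of each complex with none, and those with a peak between 500 and 1000 bp. Other names were chosen after values were seen. Members and lists were chosen with earlier results of these data known. Of the other translation genes, 2 names (Tor and mEFG2) did not match. Intervals that need read depth are not given. Alternatives covered the window, the number of regions, the nearest TSS alone, replication and the motif window.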

Additional observations from a re-analysis of the deposited data

How the results depend on the processing

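Of the 18 bound factor genes, all 18 were kept with a 250 bp window. A 1000 bp window cannot lose a gene, since it contains the 500 bp window, and it added eEFSec, eIF2Bbeta and eIF2Bdelta. These windows reached 17.8% and 24.9% of all genes. Counting only the closest TSS of a summit, 15 were kept, without eIF2Bepsilon, eIF2gamma and eIF4EHP, and 17.1% of all genes were bound. With the 3313 strongest peaks 12 were kept, with 11.9% of all genes. With 13252 pooled regions 24 were bound, with 31.8% of all genes. Among peaks found in all 3 replicates 8 were bound, with 10.7% of all genes. Among peaks found in replicates 1 and 2, an alternative chosen after seeing the data, 14 were bound, with 14.5% of all genes. The mean share over replicates was 21.0% with the stronger regions alone, where all genes had 12.3%, and 58.6% in the full lists, where all genes had 44.7%. It was 30.6% to 38.0% when each replicate was left out, where all genes had 19.7% to 23.6%. The count bound in all replicate lists was 5 with the stronger regions, where all genes had 6.86%. It was 11 to 16 when each replicate was left out, where all genes had 14.3% to 17.3%, and 16 without replicate 3, where all genes had 17.3%. Summits with a DRE or Motif 1 numbered 3 within 50 bp, against 4.58% of all promoter summits. Of 52 recomputed counts by complex, 41 stayed within 1.5 times. Part of these was fixed in advance, since a complex with no bound gene cannot gain one in a setting that only narrows the call. Requiring all 3 replicates changed the counts of eIF2, eIF2A and eIF2D, eIF3, the cap-binding family, eEF5 and eEF1 by more. Assignment to the closest TSS took 1 gene each from eIF2, eIF2B and the cap-binding family. No paired analysis was possible because there was 1 group. The read depth is unknown, so a gene that is not listed cannot be called free of binding.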

Other observations

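A further thresholded peak inside a factor gene lay in an intron of eIF4EHP, 2592 bp from its TSS, with a signal of 416, and not at the promoter of another protein-coding gene. By chromosome arm, bound factor genes numbered 2 of 6 on 2L, 4 of 13 on 2R, 4 of 12 on 3L, 6 of 15 on 3R, 2 of 7 on X and 0 of 1 on chromosome 4. The shares of all genes were 20.4% to 21.7% on the first 5 of these and 5% on chromosome 4.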
